A study of Mus musculus with 64 samples.

Results

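Transcript levels of 10 transcription factors that maintain or mark mouse pluripotency were read from RNA-seq counts of 64 mouse libraries. The factors were Pou5f1 (Oct4), Sox2, Nanog, Klf2, Klf4, Klf5, Esrrb, Tfcp2l1, Tbx3 and Zfp42 (Rex1), and they were chosen by name, as 10 of the 23338 genes counted in every library. None was left out, and all 10 had reads in eight-cell embryos and in embryonic stem (ES) cells.

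The study sampled 4 stages of inbred C57BL/6 mice, each with as many males as females. Individual eight-cell embryos (6 male, 6 female) came from natural matings and from 4 litters, and were sexed by their reads from an X-linked and a Y-linked gene. The 2i ES cells were 4 lines (2 male, 2 female) derived from eight-cell embryos. Each line is a single derivation, and all 4 were kept in LIF with PD0325901, which inhibits MEK, and CHIR99021, which inhibits GSK3. Livers came from late-gestation fetuses (12 male, 12 female) and from adults aged 15 to 20 weeks (12 male, 12 female). The labels give no transgene or deletion for any group. Embryo libraries were made from amplified cDNA with a protocol adapted from single-cell work, and the other libraries from total RNA with a stranded kit, so that for embryos against any other stage the stage and the protocol cannot be told apart.

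Pou5f1, a POU-domain factor, and Sox2, an HMG-box factor, bind composite DNA elements together and, with the homeodomain factor Nanog, form the centre of the network that keeps cells pluripotent. In ES cells LIF acts through STAT3 to raise Klf4 and Tfcp2l1, and inhibition of GSK3 relieves the repressor Tcf7l1 from Esrrb and other targets, which lets the network run without serum. Zfp42 encodes a zinc-finger protein used as a marker of the naive state, and several of these factors have separate roles in adult organs, such as Klf2 in endothelium, Klf5 in intestinal epithelium and Tbx3 in liver.

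The 10 genes lie on 9 chromosomes (GRCm38). Pou5f1 is at chr17:35506018-35510772, Nanog at chr6:122707489-122714633, Sox2, which has a single exon, at chr3:34650405-34652461, and Zfp42, on the minus strand, at chr8:43295063-43306980. Of the exonic bases of Pou5f1, 21.4% overlap Gm19553 on the opposite strand, and 10.1% of its 50-base transcript windows also occur in Gm19553 or Gm5712. Shared windows made up 8.52% of Zfp42, all of them with Zfp42-ps1, and 4.62% of Nanog. For the other 7 factors they were at most 1.01%. The strand setting of the counting is not given in the sources used here, so low counts of Pou5f1 cannot be told apart from reads of its antisense neighbour.

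RefSeq promoter sequences on GRCm38.p6 were matched by symbol for 8 of the 10 factors, without Klf5 and Tbx3. The octamer core ATGCAAA, the letters that POU factors read, occurred on either strand in 3 of the 8 windows of up to 250 bases before the RefSeq start. Over 32851 promoters it occurred in 4.12%. These 3 windows are shown because Sox2 and Nanog had the largest differences between embryos and ES lines and Zfp42 the smallest, and all 3 hold the same core. Capitals mark the octamer core, the SOX core ACAATG, the KLF core GGGTGTGG and the GC box GGGCGGGG, on either strand.
Nanog promoter, chr6:122707239-122707488, plus strand: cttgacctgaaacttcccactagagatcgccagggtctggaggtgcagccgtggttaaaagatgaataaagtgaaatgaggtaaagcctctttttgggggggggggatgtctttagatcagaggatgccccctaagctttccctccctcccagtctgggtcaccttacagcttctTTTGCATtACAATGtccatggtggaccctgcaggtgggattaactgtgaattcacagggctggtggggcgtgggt
Sox2 promoter, chr3:34649745-34649994, plus strand: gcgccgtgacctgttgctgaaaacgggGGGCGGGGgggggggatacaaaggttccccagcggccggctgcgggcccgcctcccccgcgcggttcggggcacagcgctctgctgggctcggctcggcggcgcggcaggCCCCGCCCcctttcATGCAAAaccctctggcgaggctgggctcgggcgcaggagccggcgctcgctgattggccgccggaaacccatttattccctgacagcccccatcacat
Zfp42 promoter, chr8:43307010-43307259, minus strand: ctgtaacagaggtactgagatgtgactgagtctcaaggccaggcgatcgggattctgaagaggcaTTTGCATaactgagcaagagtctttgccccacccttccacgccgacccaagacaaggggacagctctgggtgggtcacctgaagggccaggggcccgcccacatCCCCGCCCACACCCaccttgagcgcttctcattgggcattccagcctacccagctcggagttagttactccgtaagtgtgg

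In Nanog the octamer core, in reverse complement, ended 69 bases before the start, and the SOX core began 67 bases before it, with 1 base between them. Of all promoters 10.7% held the SOX core, and of the 8 windows only that of Nanog did. In Sox2 the octamer core lay 99 to 93 bases before the start, and in Zfp42, in reverse complement, 185 to 179 bases before it. These distances count from the RefSeq start, which for Sox2 and Zfp42 lies upstream of the gene coordinates given above. For Sox2 the window ends at 34649994 and those coordinates begin at 34650405. The GC box occurred in 5 of the 8 windows (Pou5f1, Sox2, Klf2, Klf4 and Zfp42) and in 16.1% of all promoters. The KLF core occurred in Zfp42 alone, where it overlaps the GC box, and in 3.2% of all promoters. The ESRRB core AAGGTCA occurred in none of the 8 and in 4.08% of all promoters. These matches describe letters in a window and were not tested as binding sites.

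Total counts on genes ranged from 4659656 to 7725432 reads in embryos, 9857929 to 10386931 in ES lines, 5145371 to 8499603 in livers of fetuses and 1567583 to 4757610 in those of adults. A level that rests on 3 reads was 0.388 to 0.644 CPM (reads scaled to the library total, here without TMM) in embryos and 0.631 to 1.91 CPM in adult livers, so values near 0 are less certain in adult liver. All levels below are CPM scaled by TMM factors, which were 1.31 to 1.36 in ES lines and 0.766 to 0.872 in adult livers. All 8 hepatocyte markers were detected in the median fetal and adult liver (summed level 28615 to 39108 and 67053 to 85616 CPM) against 1.56 to 2.79 CPM in ES lines, and all 6 oocyte markers were still detected in the median embryo (75.8 to 183 CPM). The list for cholangiocytes was not highest in liver. That for trophectoderm was not highest in embryos, which the study describes as sampled before cells differentiate. The former summed to 511 to 661 CPM in ES lines against 38.0 to 137 CPM in adult liver, and the latter had a median of 616 CPM in adult liver, where Krt8 led it, against 351 CPM in embryos. One fetal liver, female 14, also held 1815 CPM of 7 intestinal genes, and 5 fetal livers, that one among them, held 137 to 1126 CPM of 7 pancreatic exocrine genes. Counts of the factors called against or within fetal liver are also given without these libraries, while the levels use all 24 fetal livers.

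The 10 factors fell into different orders across the stages. Pou5f1, Nanog, Sox2, Esrrb and Tfcp2l1 had their highest median in ES lines. Klf5 and Tbx3 had it in embryos, and Klf2, Klf4 and Zfp42 had embryo and ES ranges that overlapped. In every case the lowest ES line was above the highest liver of either age.

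**Figure D1:**
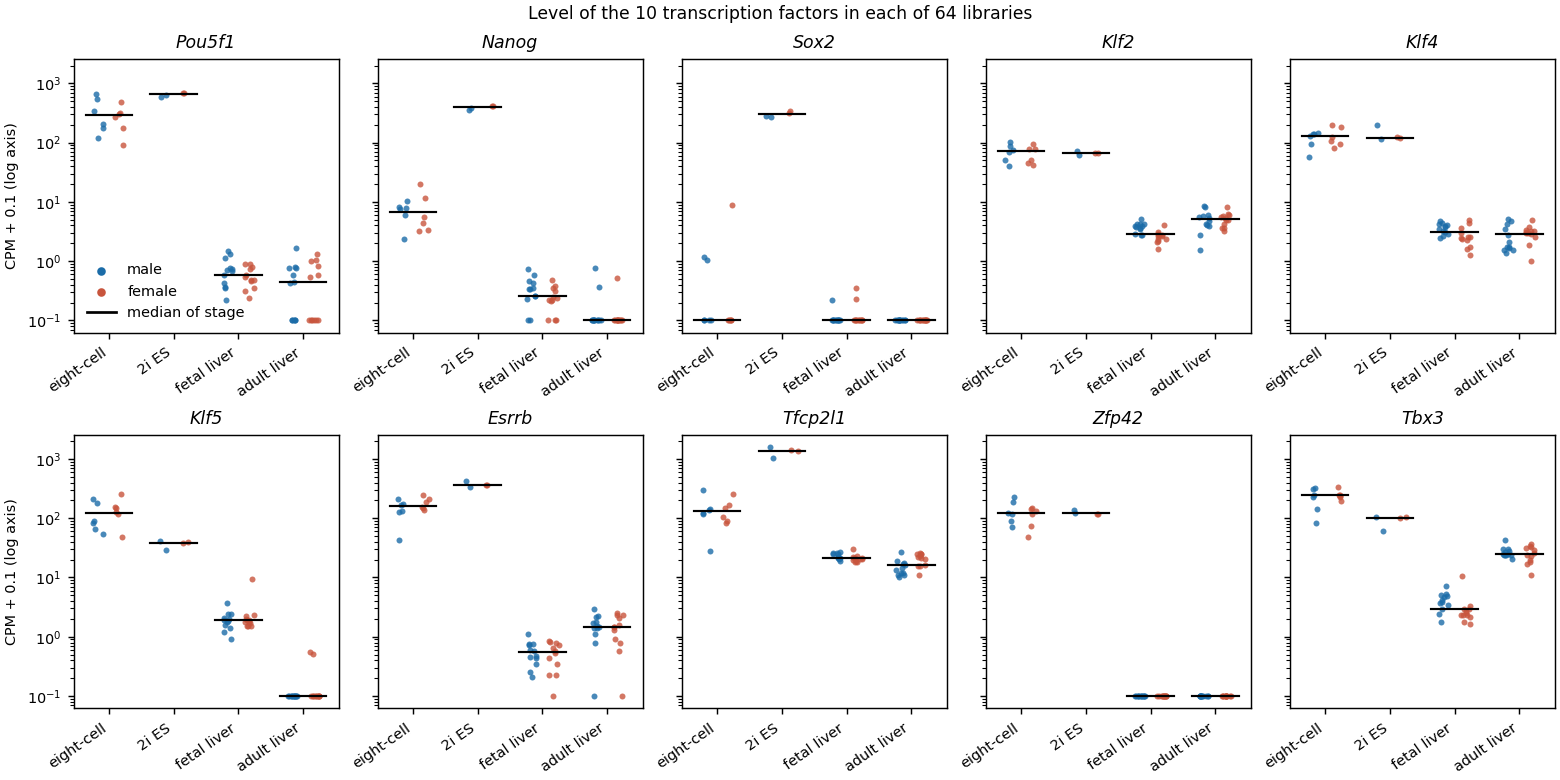
Level of each factor in the 64 libraries, as CPM plus 0.1 on a log axis, by stage, with 1 point per library (blue male, red female) and a bar at the stage median. Sox2 and Nanog are near 300.1 and 397 CPM in ES lines but at 0 and 6.73 CPM in the median embryo, whereas Zfp42 is at 121 CPM in both and at 0 in all 48 livers.

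Pou5f1, the POU factor without which no inner cell mass identity forms, was at 583, 648, 694 and 681 CPM in ES male 1, male 2, female 3 and female 4. Embryos ranged from 91.5 CPM in female 7 to 659 CPM in male 5, with a median of 288 CPM. All embryos but male 5 were below every ES line, and male 5 was above ES male 1 and male 2, so the ranges overlapped. ES lines were 2.095-fold above embryos (log2 1.07, SE 0.38, adjusted p = 0.0221, edgeR), against a median log2 of 0.44 over all 12478 genes tested. Over the same genes that median was 0.79 with the size factors of DESeq2 and 0.83 with library totals. Over 18255 genes without the expression filter it was 0.94 with DESeq2 and 1.06 with TMM. All differences between these stages are therefore best read against the median of the same fit.

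Sox2, the partner of Pou5f1, was at 282, 271, 337 and 318 CPM in ES male 1, male 2, female 3 and female 4. Of the 12 embryos 9 had no Sox2 read. Male 3 had 5 reads (1.08 CPM), male 4 had 8 reads (0.962 CPM) and female 10 had 49 reads (8.75 CPM). The ranges were far apart, and the difference (log2 8.65, SE 0.93, adjusted p = 6e-07, edgeR) was the largest among the 10 factors in each of the 24 alternative settings that gave it a value. Of the 62 Sox2 reads in embryos 49 came from a single embryo.

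Nanog, the homeodomain factor that holds ES cells in self-renewal, was at 359, 378, 416 and 417 CPM in the same order of lines. All 12 embryos had reads, from 18 in female 12 to 142 in female 7. Scaled levels ran from 2.28 CPM, in a male embryo, to 20.3 CPM with a median of 6.73 CPM. ES lines were 50.9-fold higher (log2 5.67, SE 0.38, adjusted p = 1.74e-09, edgeR). Nanog was thus detected in every embryo but below every ES line by at least an order of magnitude.

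Among the Kruppel-like factors, zinc-finger proteins that bind GC-rich promoters and can replace one another in ES cells, Klf2 and Klf4 did not pass the test between ES lines and embryos. Klf2 was at 63.0, 70.9, 66.6 and 67.6 CPM in the lines and at 40.1 to 101 CPM in embryos (median 72.9 CPM), a log2 difference of -0.05 with a 95% interval of -0.53 to 0.44. Klf4 was at 114, 199, 124 and 118 CPM in the lines and at 57.7 to 196 CPM in embryos (median 128 CPM), a difference of 0.12 with an interval of -0.39 to 0.63. Both ES ranges lay almost wholly inside those of the embryos. With library totals instead of TMM, Klf4 passed (log2 0.51, adjusted p = 0.0832, edgeR).

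Klf5, the third of these factors, was at 28.7, 40.8, 38.6 and 39.0 CPM in the lines. In embryos it was at 47.7 to 252 CPM with a median of 125 CPM, so that every embryo was above every line. It was 3.54-fold lower in ES lines (log2 -1.82, SE 0.41, adjusted p = 0.001, edgeR). With the replicate number as a block, which the labels do not give as a shared culture or litter, the value was -1.11 (adjusted p = 0.108, edgeR). That fit kept only libraries whose number occurs at both stages, and so no female embryo.

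Esrrb, an orphan nuclear receptor downstream of GSK3 inhibition, was at 341, 419.6, 365 and 362 CPM in the lines and at 42.3 to 244 CPM in embryos, with a median of 161 CPM. The ranges did not overlap and the log2 difference was 1.19 (SE 0.25, adjusted p = 0.000653, edgeR). Tfcp2l1, a CP2-family factor downstream of LIF and GSK3 inhibition, was at 1024, 1586, 1408 and 1357 CPM in the lines. In embryos it ranged from 27.5 to 305 CPM with a median of 131 CPM, and the lines were 9.25-fold higher (log2 3.21, SE 0.35, adjusted p = 7.17e-07, edgeR). Tfcp2l1 and Esrrb were thus already present in each embryo at 27.5 CPM or more, unlike Sox2.

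Tbx3, a T-box factor that acts downstream of PI3K in ES cells, was at 61.1, 105, 105 and 100.4 CPM in the lines and at 83.6 to 337 CPM in embryos, with a median of 242 CPM. Only male embryo 1, the lowest, fell among the lines. ES lines were 2.60-fold lower (log2 -1.38, SE 0.28, adjusted p = 0.000517, edgeR), and -0.81 with the replicate block (adjusted p = 0.137, edgeR). Zfp42 was at 123, 136, 119.5 and 119.6 CPM in the lines and at 48.9 to 227 CPM in embryos, with the same median of 121 CPM. Its log2 difference was -0.01 with a 95% interval of -0.58 to 0.56, which leaves a change of either sign possible.

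In all, 7 of the 10 factors passed the test between ES lines and embryos, against 65% of all genes tested. Of these, 5 were higher in ES lines (Sox2, Nanog, Tfcp2l1, Esrrb, Pou5f1) and 2 were lower (Klf5, Tbx3), against 37.6% and 27.4% of all genes. The 5 factors whose ranges did not overlap (Sox2, Nanog, Tfcp2l1, Esrrb, Klf5) compare with 47.4% of genes. The share called was thus near that of all genes. Sox2, with almost no embryo reads, passed the expression filter only through the ES lines, so its call was largely set by that filter. Oocyte markers differed between these stages as well (75.8 to 183 CPM in embryos, 4.81 to 15.9 CPM in ES lines, with Zp2 and Oosp1 at 0 in the median line), and the share of reads outside genes was 8.63% to 14.4% in embryos and 26.7% to 31.3% in ES lines. Their part in these results was not tested.

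**Figure D2:**
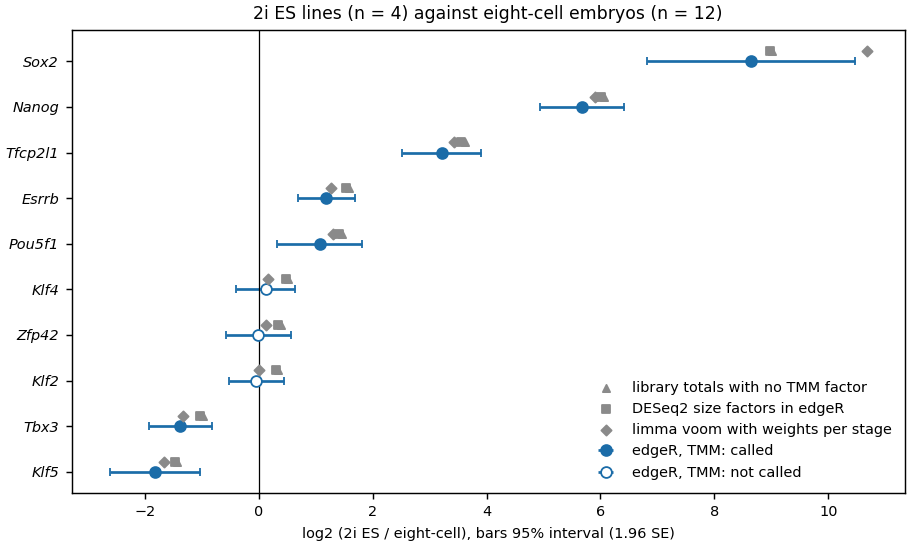
Log2 difference of 2i ES lines (n = 4) from eight-cell embryos (n = 12) for each factor, with 95% intervals from edgeR, filled where called, and grey markers for 3 other fits. Sox2, Nanog and Tfcp2l1 lie farthest to the right (8.65, 5.67 and 3.21), Klf2, Klf4 and Zfp42 have intervals across 0, and the other fits, of which library totals and DESeq2 size factors move every gene to the right, keep Klf5 and Tbx3 below 0.

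Levels per kilobase of exonic sequence compare genes only if reads scale with that length, which was not checked for the amplified embryo cDNA. On this scale Pou5f1 led in both stages, with 226 ± 129 CPM per kilobase in embryos (SD, n = 12) and 478 ± 36.3 in ES lines (SD, n = 4). In ES lines Nanog (175 ± 12.8), Sox2 (147 ± 14.9) and Tfcp2l1 (145 ± 25.3) followed. Sox2 and Tfcp2l1 were within their spread, as were Zfp42 (66.2 ± 4.22) and Esrrb (66.1 ± 5.96). Klf5 was last with 7.07 ± 1.05. In embryos the order was different, with Zfp42 (65.6 ± 26.8), Tbx3 (45.2 ± 13.9), Klf4 (41.3 ± 13.5) and Klf2 (36.8 ± 11.55) after Pou5f1 and largely within one another's spread, and with Nanog (3.35 CPM per kilobase) and Sox2 (0.437) at the end.

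Spread among the 12 embryos was described by the coefficient of variation (CV) of CPM for the 8 factors with a mean of at least 10 CPM. Pou5f1 (57.3%), Tfcp2l1 (53.2%) and Klf5 (50.5%) were above the median CV of 38.8% over 6956 genes, Zfp42 (40.9%) was close to it, and Klf4 (32.7%), Esrrb (31.9%), Klf2 (31.4%) and Tbx3 (30.6%) were below it. Tfcp2l1 had the widest range, 11.1-fold between male 1 and male 3, while Klf2 had the narrowest, 2.52-fold.

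Individual embryos stood apart in single factors or in several. Male 1 was the lowest of 12 for Klf2, Klf4, Esrrb, Tfcp2l1 and Tbx3, at 40.1, 57.7, 42.3, 27.5 and 83.6 CPM, while its Nanog was 7.64 CPM, close to the median. Female 7 was lowest for Pou5f1 (91.5 CPM) and Klf5 (47.7 CPM) and highest for Nanog (20.3 CPM). Male 5 was highest for Pou5f1 (659 CPM) and Zfp42 (227 CPM). Female 10, which held most of the Sox2 reads, was second highest for Tfcp2l1 (259 CPM) and had 4.29 CPM of Nanog, so this single embryo was not one with high Nanog. Male 1 had the largest share of reads outside genes of the 12 (14.4%), and the part of this in its low levels was not tested.

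**Figure D3:**
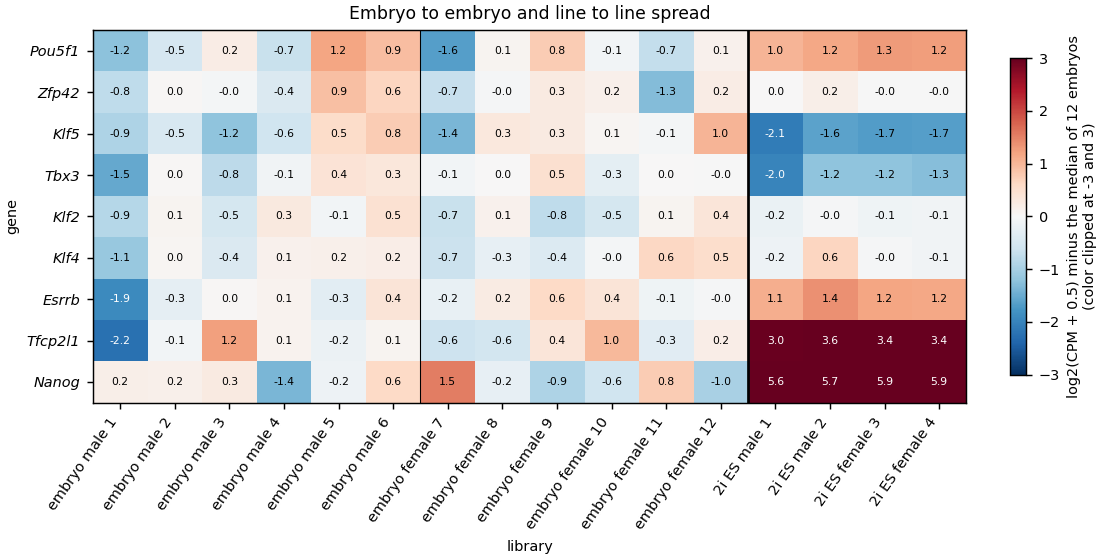
Log2(CPM + 0.5) of 9 factors in each of the 12 embryos and 4 ES lines, as the difference from the median of the embryos, with the color clipped at -3 and 3 and the value printed in each cell. Male embryo 1 is below the median in all factors but Nanog. Sox2 is not drawn, since its median in embryos is 0.

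All 28 pairs of these 8 factors had a positive Pearson r of log2(CPM + 0.5) across the 12 embryos, from 0.1698 to 0.855 with a median of 0.497. The embryos share a protocol and a scaling, and their litters are not assigned in the labels. Pairs of other genes were not computed, so neither the positive signs nor the called pairs are shown to be particular to these factors. In a two-sided permutation test with 100000 resamples, adjusted over the 28 pairs, 4 pairs were called. Pou5f1 and Zfp42 had the highest r (0.855, Spearman's rho 0.881, permutation p = 0.00043, adjusted 0.012). It held in males (0.957), in females (0.742) and without the 2 embryos farthest from the median of Pou5f1 (0.845). Klf2 and Klf4 had an r of 0.806 (rho 0.783, permutation p = 0.00137, adjusted 0.0192), with 0.922 in males, 0.764 in females and 0.717 without the 2 farthest in Klf2.

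Esrrb and Tfcp2l1 had an r of 0.809 (rho 0.629, permutation p = 0.00839, adjusted 0.0591), which fell to 0.405 without the 2 embryos farthest from the median of Esrrb and rested on them. The rho of this pair had an adjusted permutation p of 0.12. Pou5f1 and Klf5 (r 0.721, rho 0.692, permutation p = 0.00844, adjusted 0.0591) fell to 0.505 without the 2 farthest in Pou5f1, and the rho of this pair had an adjusted permutation p of 0.105. The number of called pairs was 1 without male 1, 2 without female 10, 8 without female 9 and 11 without female 11. The correlation of each factor with log depth, given as a description over 12 embryos, lay between -0.368 (Zfp42) and 0.437 (Tbx3).

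The 4 ES lines were closer to one another. CVs were 4.88% for Klf2, 6.37% for Zfp42, 7.30% for Nanog and 7.59% for Pou5f1, below the median of 10.9% over 8362 genes. Klf4 (29.0%), Tbx3 (22.98%) and Tfcp2l1 (17.5%) varied most. In each of these 3 a male line stood farthest out, male 2 with high Klf4 (199 CPM) and male 1 with low Tbx3 and Tfcp2l1 (61.1 and 1024 CPM). The female lines differed from each other by little, for example 38.6 and 39.0 CPM of Klf5 or 119.5 and 119.6 CPM of Zfp42. Their likeness over all genes was not measured, so this is not shown to be particular to the factors.

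Male and female samples were compared within each stage, the comparison for which the study was made. In embryos 0 of 9 factors tested passed (0 also at an unadjusted p under 0.05), against 0.264% of all genes. Estimates were within 0.36 of 0 on the log2 scale, but their intervals were wide, from -1.76 to 1.37 for Nanog and from -0.44 to 1.06 for Pou5f1 (male over female). Sox2 was not tested. DESeq2 also called none of the factors.

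In ES lines 0 of 10 passed, against 9.5% of all genes (edgeR, 1 factor at an unadjusted p under 0.05; DESeq2 also none). Pou5f1, Nanog, Sox2 and Zfp42 had male and female lines that did not overlap, 4 of 10 against 57% of all genes with 2 lines a sex. Sox2, at 282 and 271 CPM in the male and 337 and 318 CPM in the female lines, had a log2 difference of -0.23 (SE 0.07, adjusted p = 0.141, edgeR). Left-out lines changed the calls. Without male 1, Klf4 was called higher in the remaining male line (log2 0.72), and without male 2, Tbx3 was called lower (log2 -0.73), each with a single male line assumed to vary like the female ones.

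In the livers the factors were low or absent, and all 10 were higher in ES lines than in fetal liver (10 of 10, against 76.7% of genes called in either direction and 36.2% called higher in ES lines). For all 10 the ranges did not overlap, against 67.9% of genes. Zfp42, Sox2, Nanog, Esrrb and Pou5f1, with few or no fetal reads, passed the expression filter only through the ES lines. Their calls and separate ranges were thus largely set by that filter, and for them these counts are a description only. ES lines enter both this comparison and that with embryos, so both share samples. In bulk tissue a lower level from fewer cells of a type cannot be told apart from less RNA per cell.

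Zfp42 had no read in any of the 24 fetal or 24 adult livers. Its level in ES lines was at least 7586-fold above fetal liver and at least 2265-fold above adult liver, taking 3 reads over each group as the limit that a count of 0 allows. Sox2 had 4 reads over all fetal livers, in 3 of 24 libraries, and none in adult liver (ES lines at least 5472-fold higher). Nanog had 37 reads in 19 of the fetal livers and 3 reads in 3 of the adult livers, which put ES lines 7117-fold above adult liver with a 95% counting interval of 2435 to 34510. Pou5f1 had 99 reads over fetal livers (median 0.481 CPM) and 24 reads over adult livers (median 0.343 CPM), with ranges of 0.122 to 1.37 and 0 to 1.56 CPM that overlapped. Reads of the overlapping antisense gene may be among such low counts, which was not tested. The log2 differences of ES lines from fetal liver were 13.11 for Sox2, 10.92 for Nanog, 10.29 for Pou5f1 and 9.80 for Esrrb (SE 0.11 to 0.12, highest adjusted p 1.73e-35, edgeR). For Sox2, with 4 fetal reads, the log2 ranged from 12.02 to 14.49 over all settings, so its SE understates how uncertain the size is.

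In fetal liver 5 factors had 390 reads (Klf5) to 4024 reads (Tfcp2l1) in total over the 24 libraries, and 76 of the Klf5 reads were from female 14. Tfcp2l1, which is also known from kidney and salivary gland epithelium, was the most abundant, at 18.1 to 30.4 CPM with a median of 21.3 CPM, and per kilobase too (2.37 ± 0.33). Klf4 was at 1.17 to 4.84 CPM (median 2.95), Klf2 at 1.52 to 4.98 CPM (median 2.77), Tbx3 at 1.55 to 10.5 CPM (median 2.89) and Klf5 at 0.812 to 9.43 CPM (median 1.78). ES lines exceeded them by log2 6.03, 5.58, 4.56, 4.83 and 4.21 (SE 0.08 to 0.24, highest adjusted p 1.67e-16, edgeR). Without female 14, or without the 5 livers that held pancreatic genes, all 10 calls held, and the log2 of Klf5 was then 4.45 and 4.51.

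Adult and fetal livers, which share the fetal livers with the preceding comparison, were compared for the 4 factors with enough reads (Klf2, Klf4, Tfcp2l1, Tbx3), and 2 were called, both higher in adults. Of all genes 66.6% were called, 31.6% higher and 35% lower in adults. The share of higher calls among all calls was 47.4% with TMM and 25.3% with library totals, so the scaling matters for small differences here. With library totals the median of all genes was -0.61 in place of -0.04.

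Tbx3, which in liver takes part in hepatoblast growth and in the adult pericentral programme, was at 11.01 to 43.0 CPM in adult livers (median 24.9) and at 1.55 to 10.5 CPM in fetal livers (median 2.89). Every adult liver was above every fetal one, as for 41.6% of genes. The difference was 7.87-fold (log2 2.98, SE 0.16, adjusted p = 8.94e-24, edgeR) and stayed called in each setting tried. Klf2 was at 1.43 to 8.39 CPM in adult livers (median 5.02), overlapping the fetal range, and was 1.75-fold higher (log2 0.81, SE 0.13, adjusted p = 5.02e-08, edgeR). With library totals the value was 0.24 and was not called. The 8 endothelial markers summed to 558 to 777 CPM in fetal and 499 to 698 CPM in adult livers, all 8 detected in the median liver of both ages, and their part in the Klf2 difference was not tested.

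Klf4 differed by log2 -0.09 (SE 0.16, adjusted p = 0.59, edgeR) and Tfcp2l1, at 10.002 to 26.9 CPM in adult livers (median 16.4), by -0.23 (SE 0.09, adjusted p = 0.0155, edgeR), which is under the fold threshold of 0.5. With library totals both were called lower (-0.65 and -0.79). Klf5 did not pass the expression filter over the livers and was not tested. It had 390 reads over all 24 fetal livers and 2 over all 24 adult livers, a ratio of 58.2 with a 95% counting interval of 16.1 to 481, and its ranges did not overlap. Esrrb had 79 reads in fetal and 73 in adult livers, with medians of 0.447 and 1.35 CPM and ranges that overlapped.

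**Figure D4:**
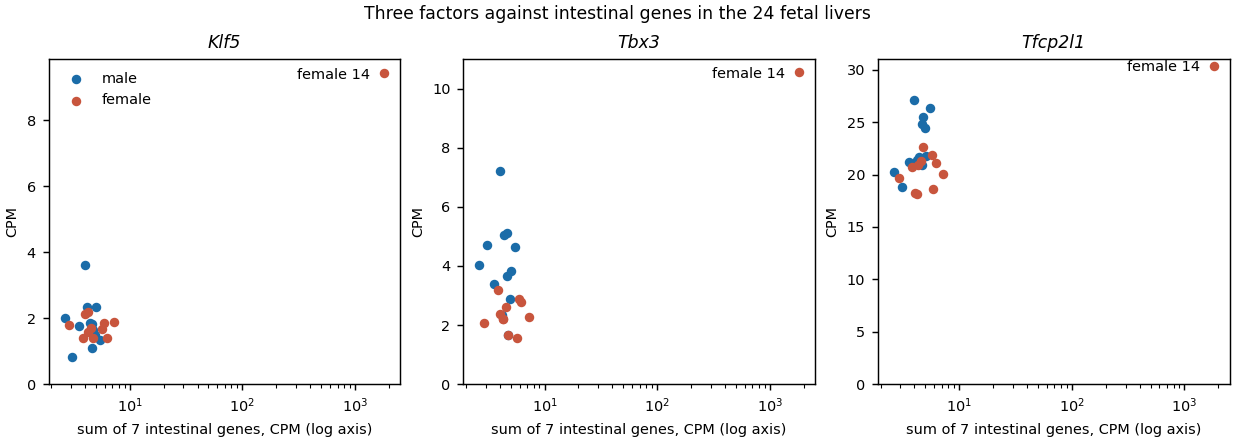
Klf5, Tbx3 and Tfcp2l1 in each of the 24 fetal livers (CPM, linear axis) against the summed CPM of 7 intestinal genes (log axis), blue male and red female. Female 14 is alone at 1815 CPM of intestinal genes and is the highest fetal liver for all 3 factors (9.43, 10.5 and 30.4 CPM), while the other 23 lie at 2.63 to 7.24 CPM of intestinal genes.

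The fetal liver with intestinal genes had the highest Klf5 of the 24 (9.43 CPM against 0.812 to 3.61), the highest Tbx3 (10.5 against 1.55 to 7.22), the highest Tfcp2l1 (30.4 against 18.1 to 27.1) and the highest Klf4 (4.84 against 1.17 to 4.60). Its Klf2 (2.23 CPM) and its endothelial sum (603 CPM) lay inside the range of the others. The intestinal list was noticed in the data and not chosen beforehand, and its part in the high values was not tested. Of the 7 intestinal genes 3 (Alpi, Slc5a1, Mep1b) were at 0 in the median fetal liver.

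Between male and female fetal livers 1 of 5 factors tested was called, against 4.64% of all genes (2 at an unadjusted p under 0.05). Klf2 was at 2.65 to 4.98 CPM in males (median 3.78) and at 1.52 to 4.03 CPM in females (median 2.59). The ranges overlapped, and males were 1.47-fold higher (log2 0.56, SE 0.13, adjusted p = 0.00236, edgeR). Klf4 had a male over female log2 of 0.42 (adjusted p = 0.0774, edgeR), under the fold threshold, and Tbx3 of 0.42 (adjusted p = 0.258, edgeR).

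Without female 14 the count was 3 of 5, against 4.55% of all genes, since Klf4 (log2 0.53, adjusted p = 0.0138, edgeR) and Tbx3 (log2 0.79, adjusted p = 0.00155, edgeR) were then called higher in males. The same 3 factors were called without the 5 livers with pancreatic genes, against 4.47% of all genes. The share of reads outside genes also separated the sexes in fetal liver, with 39.9% to 49.0% in males and 34.1% to 38.1% in females, and its part in these differences was not tested.

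In adult livers 0 of 3 factors passed, against 9.49% of all genes (edgeR, 1 at an unadjusted p under 0.05; DESeq2 also none). Tfcp2l1 was at 10.002 to 26.9 CPM in males (median 13.7) and at 10.7 to 26.2 CPM in females (median 21.6), a log2 of -0.48 (SE 0.15, adjusted p = 0.0189, edgeR), just under the fold threshold. In fetal liver the same gene had 0.14 (SE 0.08). The test of the difference between the 2 ages gave 0.57 (SE 0.16, adjusted p = 0.00687, edgeR), which was called, as were 13.7% of all genes. For Klf2 the same test gave 0.50 (SE 0.24, adjusted p = 0.115, edgeR), so its sex difference was not shown to differ between fetal and adult liver.

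The other genes of the pluripotency network were described by a list of 41 in 4 groups. Between ES lines and embryos 34 of 41 were called, 26 higher and 8 lower, against 65% of all genes called, 37.6% higher and 27.4% lower, with a median log2 of 1.89 against 0.44 over all genes. Genes without embryo reads, such as Lifr and Nr0b1, passed the expression filter only through the ES lines, so their calls were largely set by that filter. Of 8 genes of LIF to STAT3 signalling 4 were higher and 2 lower. Lifr, the LIF receptor, had no read in any embryo and was at 126 ± 15.7 CPM (SD, n = 4) in ES lines, at least 3210-fold higher, and its co-receptor Il6st was at 152 ± 21.5 CPM in lines and 1.58 ± 2.36 CPM (SD, n = 12) in embryos (log2 6.72). The feedback inhibitor Socs3 (log2 -2.43) and the kinase gene Pim3 (-1.33) were lower in ES lines.

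Of 8 genes of WNT and GSK3 signalling 5 were higher and none lower. The WNT target genes Axin2 (log2 8.00, SE 1.23) and Sp5 (7.81, SE 1.26) led, from 0.482 and 0.0893 CPM in embryos to 44.1 and 13.05 CPM in ES lines. Of 13 partner factors and cofactors 10 were higher and 2 lower. Nr0b1 had no read in embryos and was at least 3001-fold higher in lines, while Myc (log2 -4.47) and Sall4 (-0.61) were lower. Of 12 other genes of the pluripotent state 7 were higher, led by Fgf4 (4.88) and L1td1 (4.06), and 4 lower, led by Dppa3 (-5.61) and Fbxo15 (-4.58), which are both known as transcripts of oocytes and early embryos. Dppa3 was at 2466 ± 483 CPM in embryos (SD, n = 12) and 52.7 ± 33.2 CPM in lines (SD, n = 4).

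Against fetal liver 37 of 41 were called, 32 higher and 5 lower in ES lines, against 76.7% of all genes called, 36.2% higher and 40.5% lower, with a median of 4.58 against -0.03 over all genes. Genes with almost no fetal reads, such as Fgf4, Tcl1 and Nr0b1, passed the expression filter only through the ES lines, so their calls were largely set by that filter. All 12 other genes of the pluripotent state were higher. Fgf4 had no read in fetal liver and was at least 19989-fold higher, and Dppa5a had 3 reads (ratio 41621, 95% counting interval 14242 to 201825). Of 13 partner factors 12 were higher, among them Nr0b1 with 2 fetal reads (ratio 10760, interval 2979 to 88848) and Tcl1 with none (at least 3797-fold), and Myc was lower (log2 -2.67). Of 8 genes of WNT and GSK3 signalling 7 were higher, led by Sp5, with 1 fetal read (ratio 2388, interval 429 to 94310), and Axin2 (log2 5.03). Of 8 genes of LIF to STAT3 signalling 1 was higher (Socs3, 1.88), 4 were lower, led by Jak2 (-3.60) and Jak1 (-2.17), and 3 did not pass. The number called was 37 of 41 without female 14 and also without the 5 livers with pancreatic genes.

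Between adult and fetal liver 15 of the 23 network genes tested were called, 7 higher and 8 lower in adults, a share close to the 66.6% of all genes called, 31.6% higher and 35% lower, with a median of 0.18 against -0.04. Lifr (log2 2.11) and Il6st (1.41) were higher, and Pim1 (-3.40) and Jak2 (-1.22) lower. Axin2 was higher (2.99) and Tcf7l1 lower (-0.87). Among partner factors Nr5a2 (1.62), a nuclear receptor of hepatocytes, and Sall1 (1.29) were higher and Mybl2, a cell cycle factor, lower (-6.86). Sall4 had no read in adult liver and was at least 127-fold higher in fetal liver. None of the 12 other genes of the pluripotent state had enough reads to be tested.

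The Kruppel-like family holds 14 further members besides the 3 studied here. In embryos Klf17 was the most abundant of all 17 per kilobase (95.6 ± 57.1 CPM per kilobase, SD, n = 12), above Klf4, and it was nearly absent from ES lines (0.294 CPM, against 229 CPM in embryos, log2 -9.55, SE 0.92, adjusted p = 1.58e-07, edgeR). Leading in ES lines was Klf4 itself (45.8 ± 13.3, SD, n = 4), with Klf9 (37.2 ± 4.65) and Klf2 (36.3 ± 1.77) within its spread. In fetal liver Klf1, the erythroid member, led with 102 ± 19.2 CPM per kilobase (SD, n = 24), and Klf2 and Klf4 were 11th and 12th of 17. The 9 erythroid markers, Klf1 among them, summed to 3580 to 5350 CPM there, but Hba-a1, Hbb-b1 and Hbb-b2 were at 0 in the median fetal liver. In adult liver Klf15, a regulator of hepatic amino acid and glucose metabolism, led with 93.3 ± 28.1 (SD, n = 24), and Klf2 was 10th.

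The genes with the pattern most like each factor were found by Pearson's r of log2(CPM + 0.5) over the 64 libraries, among 13983 genes averaging 1 CPM or more. These libraries share stages, so a high r mostly describes the 4 stage levels. Pou5f1 and Esrrb were most like Tdgf1 (r 0.988 and 0.977), Zfp42 was most like 2210409E12Rik (0.996) and then Tdgf1 (0.994), and Zfp42 itself came second for Pou5f1 (0.987). Klf4 was most like Zfp42 (0.977), and Klf2 like Ncoa3 (0.973) and Zfp42 (0.962). Tdgf1, a Nodal co-receptor gene, was at 164 CPM in the median embryo and 533 CPM in the median line.

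Sox2 was most like Foxd3 (0.986) and H2-M5 (0.980), both at 0 in the median embryo and at 17.7 and 34.0 CPM in the median ES line. Nanog and Tfcp2l1 shared Rex2 as the most similar gene (0.961 and 0.962), followed by Zfp534 (0.960) and Zfp600 (0.957), all 3 higher in ES lines than in embryos. Esrrb had Gm10324 second (0.976). Klf5 was most like Syngr1 (0.980) and Eef1g (0.977), and Tbx3 like Gpd2 (0.959) and Def8 (0.954), which were highest in embryos, as those factors were.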

How the data were processed

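RNA-seq of 64 libraries was used: 12 eight-cell embryos, 4 2i ES lines, 24 fetal and 24 adult livers, grouped by the stage and sex in their labels. The authors deposited raw counts of reads per gene, made with HTSeq after alignment to mm10. The submitters' processing notes name TopHat2 2.0.4, Bowtie2 2.1.0, SAMtools 0.1.18 and Picard. The 5 rows that name no gene were left out.

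The members and gene lists were chosen with earlier results of these data known, and the intestinal and pancreatic lists were taken from the data themselves. Named genes were the 10 factors, the 2 called genes with the largest log2 per network list and direction, the leading Kruppel-like factor per stage, the 2 most similar genes per factor and up to 3 called pairs. One more called pair was named after its values were seen. Single genes that the rule would name are not reported here.

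Counts were fitted on all genes with edgeR 4.0.16 in R 4.3.3 (TMM, filterByExpr, robust quasi-likelihood F test, two-sided), separately for each pair of stages, with sex as a term, and for each sex comparison. Genes with a Benjamini-Hochberg adjusted p under 0.1 and an absolute log2 above 0.5 were called. The sex by age difference was fitted on the 48 livers. Alternatives were DESeq2 1.42.0, its size factors in edgeR, library totals, no filter, no sex term, no fold threshold, 1 fit of all 4 stages, limma 3.58.1 voom with weights, the replicate number as a block, and left-out samples. The SE of an edgeR value was its absolute log2 divided by the square root of the F statistic. Fits were tested on simulated data. Levels used a pseudocount of 0.5 CPM for correlations, Python 3.11.15, pandas 2.3.3 and scipy 1.17.1. Exon lengths and overlaps came from GENCODE vM21 and promoters from RefSeq, GRCm38.p6. Where the labels do not say that samples of a group came from separate animals or litters, p-values measure the spread between these samples. Counting intervals, which are those of folds and ratios of reads, and floors cover counting error only. Intervals of log2 differences follow from the edgeR SE instead and are not counting intervals. Each library's smallest reliable level follows from its reads on genes.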

Additional observations from a re-analysis of the deposited data

Results flagged for a closer look

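Of 30 groups of 4 to 10 samples tested for a sample far from the others, 4 had one, and chance alone gives about 5% of groups. Sox2 in female embryo 10 was 8.75 CPM while the other 5 female embryos were at 0 CPM, where a read in any 1 embryo would have been marked. Klf4 in ES line male 2 was 199 CPM with the nearest line at 124 CPM. Tbx3 in female embryo 9 was 337 CPM with the nearest at 245 CPM, and Tbx3 in ES line male 1 was 61.1 CPM with the nearest at 100.4 CPM.

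Tfcp2l1 had a male over female log2 of 0.14 in fetal and -0.48 in adult liver, and the former minus the latter was 0.57 (SE 0.16, adjusted p = 0.00687, edgeR), a difference between groups that was itself tested.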

How the results depend on the processing

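Between adult and fetal liver 2 factors were called, and 4 with DESeq2, 5 without the expression filter and 5 in a single fit of all stages, which also tested some of the low factors. Without female 14 and without the 5 livers with pancreatic genes it was 2, with Klf2 at log2 0.79 and 0.81 and Tbx3 at 3.12 and 3.19. Between the sexes of ES lines the count was 0, and 0 to 1 when a line was left out. In fetal liver it was 1, and 2 without the fold threshold, 3 without female 14 and 3 without the 5 livers with pancreatic genes, both sets left out being chosen after seeing the data. In adult liver it was 0, and 1 without the fold threshold. The number of correlated pairs was 4, and 1 to 11 when an embryo was left out. The cause was not tested beyond what each setting leaves out.

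The replicate numbers did not pair the samples (correlation of deviations -0.05 to 0.04, none over 0.1). The replicate block kept only libraries whose number occurs at both stages, which made 4 pairs of ES lines with embryos or with fetal livers. All embryos and fetal livers in those pairs were male. With sex as a term, the stage difference then rested on the male lines and the libraries of their numbers. In this fit 5 factors were called between ES lines and embryos in place of 7, since Klf5 and Tbx3 were lost, 10 against fetal liver and 2 between livers. The block itself and the smaller set cannot be told apart in the counts with ES lines. Network calls were 25, 38 and 15 with the block. Over all genes the block gave 3917 calls between ES lines and embryos in place of 8112. Sex calls over all genes were 80 (DESeq2) and 3461 (1 fit of all stages), and 13 to 30 with an embryo left out, in place of 24 in embryos, 339 (1 fit) and 0 to 3070 with a line left out in place of 1205 in ES lines, 4807 (no fold threshold), 1057 (no filter) and 391 (1 fit) in place of 600 in fetal liver, and 3400 (no fold threshold) and 1518 (no filter) in place of 984 in adult liver.

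Of 732 alternative values for 51 single results, 717 kept their side of the threshold, of which 42 changed sign without being called in either fit, 12 passed it newly, 3 no longer did, and 0 reversed. Of 40 stage medians 9 moved by more than 1 SD, all in ES lines with library totals.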
